A study of Mus musculus with 3 samples.

Results

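Single-cell RNA sequencing (scRNA-seq) of mouse brain was examined for 8 genes that mark young, migrating neurons: Dcx, Stmn2, Tubb3, Tubb2b, Sox11, Sox4, Igfbpl1 and Cd24a. They were taken by symbol from the 31053 genes of the count matrix, each symbol occurred in 1 row, and none of them was used to sort the cells into classes. The 3 samples are labelled control, Ischemic Stroke (IS) and Hemorrhagic Stroke (HS), and all are brain tissue of 10-week-old mice labelled C56BL6. By the methods, the target tissue of 8 mice was collected for each condition: healthy mice, mice after occlusion of the middle cerebral artery, and mice after collagenase injection into the right striatum. Neither the labels nor the methods state how long after stroke this tissue was taken. The counts of the 3 libraries came in 1 matrix, and barcodes carry a suffix (1, 2 or 3) for their library. No label or file header ties a suffix to a condition, and none was inferred from measured values, so the libraries are called library 1, 2 and 3, no difference between conditions was computed, and no test was run.

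Neuroblasts are born from dividing progenitors in the wall of the lateral ventricles of the adult mouse brain and migrate toward the olfactory bulb. Their movement and neurite growth depend on a dynamic microtubule skeleton, to which tubulins, doublecortin and stathmins contribute. The SoxC transcription factors, Sox4 and Sox11 among them, are known to drive the onset of neuronal gene expression as progenitors leave the cell cycle.

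The deposited values are counts of unique molecular identifiers (UMIs), each standing for 1 captured RNA molecule. After cells with under 1000 UMIs or over 30% mitochondrial counts were left out, 31982 of 35968 barcodes remained, with 8969 to 13769 cells and a median of 5801 to 6389 UMIs per library. Of the barcode sequences, 110 occurred in 2 libraries and 90 of these were kept in both. Cells were classed by marker genes alone, so every class name stands for a neuroblast-like, T-cell-like or other such class. A cell with a UMI of at least 2 of Dlx6os1, Sp9, Dlx2 and Meis2 counted as a neuroblast unless it met another class. A cell with at least 3 of 8 cell cycle genes and at least 2 of 7 neural progenitor genes counted as a dividing progenitor. This held only if the cell met no class other than neuroblast or neuron. This gave 1665 neuroblasts (498, 643 and 524 in libraries 1, 2 and 3), 416 dividing progenitors (93, 166 and 157) and 321 oligodendrocyte precursors (156, 110 and 55). Of the dividing progenitors, 396 also met the neuroblast rule. The neural progenitor genes include Dlx6os1, Sp9 and Dlx2 of that rule, so this overlap is in part built into the sorting. A Mki67 UMI was found in 86.5% of the dividing progenitors and 1.32% of the neuroblasts. Mki67 is among the 8 cell cycle genes of the rule, so this contrast follows from the sorting. The marker lists of all glial, immune and vascular classes had a median of 0 genes with a UMI in neuroblasts. By its rule, the neuroblast class holds no cell that met those classes. The 2524 cells that met the rules of several classes were left out, and 42.2% of them were called doublets by comparison with simulated doublets.

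In the GENCODE annotation of GRCm38, Dcx lies on chrX:143855842-143933311 and Igfbpl1 on chr4:45809468-45826923, both on the minus strand. Stmn2 lies on chr3:8509360-8561606, Tubb3 on chr8:123411424-123422015 and Cd24a on chr10:43578284-43584265, all on the plus strand. Tubb2b lies on chr13:34126748-34130466, Sox4 on chr13:28948919-28953713 and Sox11 on chr12:27334264-27342574, all on the minus strand. Tubb3 lies within the span of Gm20388 on the same strand, and the effect of this overlap on the Tubb3 counts was not tested. Sox4 overlaps Gm26735 on the opposite strand.

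RefSeq promoter sequences were at hand for 4 of the 8 genes. The 250 bases before an annotated start on GRCm38.p6 are shown 5′ to 3′ because these genes include Dcx, Tubb3 and Sox4, which were higher in neuroblasts than in dividing progenitors, and Sox11, whose levels in both classes overlapped. Capitals mark matches to the SOX motif ACAANG, read on both strands (reverse CNTTGT), or to the E-box CAGCTG, which reads the same on both strands.
Dcx, chrX:143933125-143933374, minus strand: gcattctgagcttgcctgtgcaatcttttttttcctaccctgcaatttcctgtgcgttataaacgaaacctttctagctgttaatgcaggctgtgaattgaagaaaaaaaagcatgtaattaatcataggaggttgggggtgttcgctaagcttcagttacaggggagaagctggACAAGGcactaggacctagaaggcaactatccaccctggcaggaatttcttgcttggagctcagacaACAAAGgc
Tubb3, chr8:123411303-123411552, plus strand: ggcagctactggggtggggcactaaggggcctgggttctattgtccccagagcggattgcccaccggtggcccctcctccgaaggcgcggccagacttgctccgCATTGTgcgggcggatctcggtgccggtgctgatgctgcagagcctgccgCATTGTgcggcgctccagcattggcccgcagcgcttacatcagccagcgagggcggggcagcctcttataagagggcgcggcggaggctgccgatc
Sox11, chr12:27342719-27342968, minus strand: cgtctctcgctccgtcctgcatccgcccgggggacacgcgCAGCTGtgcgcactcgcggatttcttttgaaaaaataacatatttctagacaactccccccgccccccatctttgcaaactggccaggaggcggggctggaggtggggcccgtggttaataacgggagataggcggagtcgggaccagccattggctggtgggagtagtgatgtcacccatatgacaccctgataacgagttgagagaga
Sox4, chr13:28953700-28953949, minus strand: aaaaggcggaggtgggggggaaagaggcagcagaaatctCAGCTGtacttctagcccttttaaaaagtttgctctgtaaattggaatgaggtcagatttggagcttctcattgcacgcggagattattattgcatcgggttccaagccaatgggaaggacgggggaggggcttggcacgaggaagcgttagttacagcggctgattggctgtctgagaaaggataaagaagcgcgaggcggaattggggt
The Dcx and Tubb3 windows each held 2 SOX matches and no E-box match, whereas the Sox11 and Sox4 windows each held 1 E-box match and no SOX match. The Dcx window belongs to the more downstream of 2 annotated starts, and the window of the other start held neither motif. The 2 Dcx matches and the more downstream Tubb3 match lie inside the gene spans given above, and the Dcx matches lie downstream of the other Dcx start. Of the 32851 promoter windows of this length in the table, 36.3% held the SOX motif, and 4271 windows held the E-box. These matches describe letters only, and no binding was measured.

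The 8 genes together made up 14281 CPM of the neuroblasts (CPM: the counts of a gene in the summed counts of a class, scaled to a total of 1000000), against 6823 CPM in dividing progenitors and 1187 CPM in oligodendrocyte precursors. Among the 15 classes with at least 50 cells, 7 of the 8 genes had their highest CPM in neuroblasts, where 8.47% of all 7876 genes with at least 50 CPM in 1 class had theirs. Counting the highest CPM in neuroblasts or dividing progenitors also gave 7 of the 8 genes, against 19.9% of all genes. The exception was Cd24a, which was highest in neutrophils. The Sox11 intervals of neuroblasts and dividing progenitors overlapped, and without library 1 Sox11 was highest in dividing progenitors, which left 6 genes in this count. Every CPM carries a 95% Poisson interval and every share of cells a 95% Clopper-Pearson interval, which cover counting error only. A UMI count from the 3′ end of transcripts does not compare levels between genes closely, so each gene is compared with itself across classes.

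**Figure D1:**
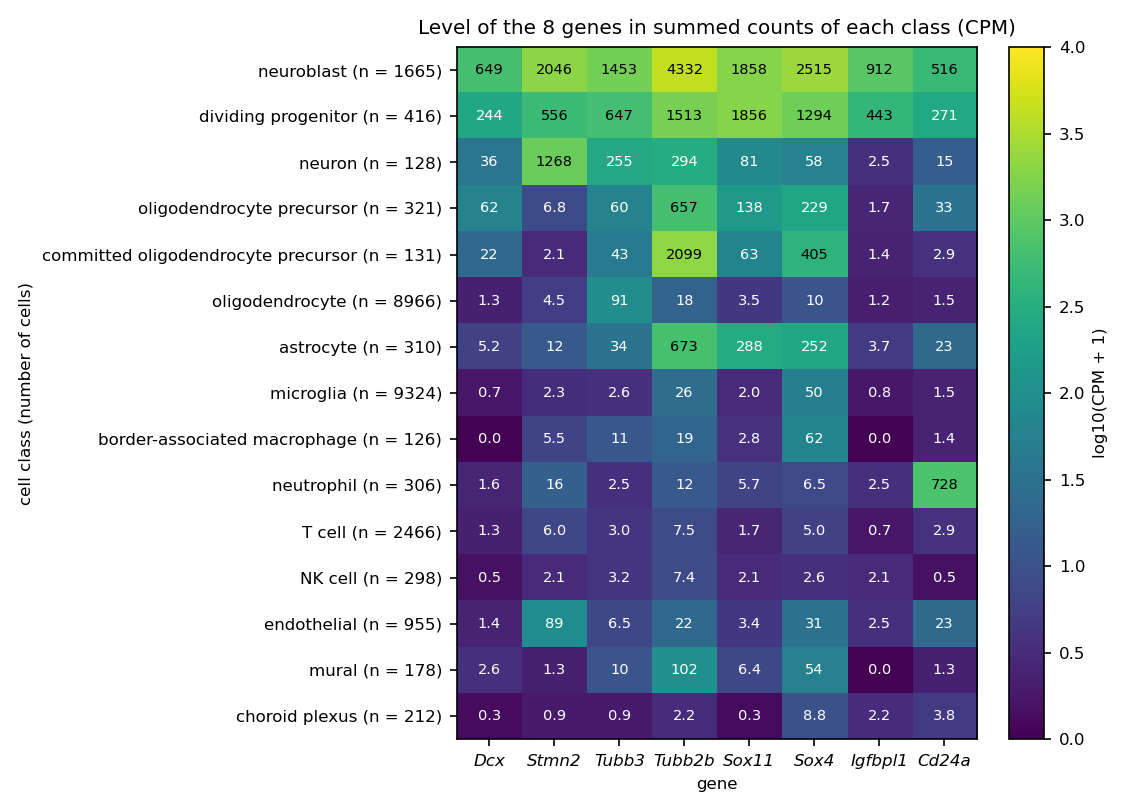
CPM of the 8 genes (columns) in the summed counts of the 15 classes with at least 50 cells (rows), with color on a log10(CPM + 1) scale and the CPM printed in each cell. The upper rows, neuroblasts and dividing progenitors, are high for all 8 genes, while Cd24a is highest in neutrophils (728 CPM) and Tubb2b is also high in committed oligodendrocyte precursors (2099 CPM).

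Dcx encodes doublecortin, a microtubule-binding protein of migrating neurons. Its level in neuroblasts was 721, 619 and 612 CPM in libraries 1, 2 and 3, and in dividing progenitors 281, 246 and 220 CPM. The lowest neuroblast library lay above the highest dividing progenitor library. Over all libraries, neuroblasts held 649 CPM (95% interval 631 to 667), 2.67-fold that of dividing progenitors (95% interval 2.50 to 2.84). A Dcx UMI was found in 87.6% of neuroblasts and 76.2% of dividing progenitors, but the median UMI count of the latter was 11319 per cell against 4360 in neuroblasts. After every cell was thinned to 1000 UMIs, the shares were 46.0% and 23.6%. In T cells, which should lack these transcripts and had a median of 4746.5 UMIs, the share was 0.649% as counted and 0.122% after thinning.

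Oligodendrocyte precursors came after the dividing progenitors for Dcx. They held 75.5, 49.9 and 30.3 CPM in libraries 1, 2 and 3, and 25.9% of them (95% interval 21.2 to 31.0%) had a Dcx UMI. Of the 83 such cells, 62 had a single Dcx UMI and 3 had 3 or more. For each Stmn2 UMI, oligodendrocyte precursors held 9.08 Dcx UMIs, against 0.317 in neuroblasts and 0.210 in T cells, so Dcx stood in another proportion to Stmn2 than in neuroblasts. The value of oligodendrocyte precursors rests on 12 Stmn2 UMIs and that of T cells on 81. Neurons overlapped oligodendrocyte precursors in library values, with 36.1 CPM of Dcx over all libraries.

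Of the 1665 neuroblasts, 207 had no Dcx UMI. These cells were shallower, with a median of 3108 UMIs against 4494.5 in the 1458 neuroblasts with a Dcx UMI. They still held a median of 6 of the other 7 genes, and 88.4% of them held at least 5. Neuroblasts with a Dcx UMI held a median of 7 of the other 7 genes.

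Stmn2 encodes stathmin-2, a neuronal regulator of microtubule assembly in growing axons. It reached 2192, 2058 and 1892 CPM in the neuroblasts of libraries 1, 2 and 3, and 671, 683 and 389 CPM in dividing progenitors. Of the 8 genes it had the largest ratio between these classes, 3.68-fold over all libraries (95% interval 3.53 to 3.83), with 3.26, 3.01 and 4.87-fold in libraries 1, 2 and 3. The ratio in library 3 lay above the intervals of the other libraries, whose dividing progenitors held more Stmn2. Only 61.8% of dividing progenitors (95% interval 56.9 to 66.5%) had a Stmn2 UMI, whereas 95.8% of the shallower neuroblasts had one. After thinning, the shares were 35.3% and 81.2%.

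Neurons came second for Stmn2, with 1268 CPM and a UMI in 89.8% of 128 cells. The name of this class rests on its marker genes. The mature neuron gene Rbfox3 had a UMI in 6.25% of its cells and Sox2 in 59.4%. The neuron class came almost wholly from libraries 1 and 2 (84, 43 and 1 cells), which held 1379 and 949 CPM. Oligodendrocyte precursors held 6.77 CPM of Stmn2 (95% interval 3.50 to 11.8), an interval that overlaps that of T cells (5.99 CPM, 95% interval 4.76 to 7.44). Their share of cells with a Stmn2 UMI was 2.80%, against 1.38% in T cells. Neuroblasts exceeded oligodendrocyte precursors 302-fold (95% interval 173 to 585), the second largest ratio after Igfbpl1.

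Stmn2 also appeared in endothelial cells, at 88.7 CPM and in 15.9% of 955 cells (95% interval 13.7 to 18.4%). Of these cells 936 came from library 3. The 10 cells richest in Stmn2 held 36.0% of its UMIs, and 65 cells had 3 or more. For each Tubb3 UMI, endothelial cells held 13.7 Stmn2 UMIs, against 1.41 in neuroblasts and 1.98 in T cells. The T cell value stems from other libraries, since 66 of its 81 Stmn2 UMIs came from library 2. The 21 T cells of library 3 held no Stmn2 UMI. Cells that met no class held 47.6 CPM of Stmn2 in library 3, against 16.5 and 8.28 CPM in libraries 1 and 2. With 2 and 17 endothelial cells in libraries 1 and 2, the endothelial Stmn2 level could not be compared between libraries.

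Tubb3 and Tubb2b encode beta-tubulins, the former in wide use as a marker of neurons. Tubb3 was at 1351, 1215 and 1804 CPM in the neuroblasts of libraries 1, 2 and 3 and at 638, 573 and 712 CPM in the dividing progenitors. Library 3 was the highest in both classes, and the ratio was 2.25-fold over all libraries (95% interval 2.16 to 2.34). Neurons held 255 CPM of Tubb3, but 145 of their 402 Tubb3 UMIs came from the single neuron of library 3. In libraries 1 and 2 neurons held 165 and 185 CPM.

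Oligodendrocytes came next for Tubb3, with 84.6, 69.0 and 113 CPM in libraries 1, 2 and 3. A Tubb3 UMI was found in 29.4% of the 8966 oligodendrocytes (95% interval 28.4 to 30.3%), against 1.58% of T cells, with median depths of 6225.5 and 4746.5 UMIs. After thinning, the shares were 6.96% and 0.446%. The 10 richest oligodendrocytes held 3.15% of the Tubb3 UMIs, so the signal was spread over many cells. For each Stmn2 UMI there were 19.9 Tubb3 UMIs in oligodendrocytes, against 0.711 in neuroblasts and 0.506 in T cells. The other microtubule genes did not share this level, since oligodendrocytes held 1.25 CPM of Dcx, 4.55 CPM of Stmn2 and 17.7 CPM of Tubb2b. The part of Gm20388, the overlapping gene on the same strand, in this signal was not tested.

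Tubb2b was at 3974, 4118 and 4903 CPM in the neuroblasts of libraries 1, 2 and 3 and at 1554, 1487 and 1510 CPM in the dividing progenitors, a ratio of 2.86-fold over all libraries (95% interval 2.79 to 2.94). Committed oligodendrocyte precursors, the next stage after oligodendrocyte precursors, ranked second with 2137 and 2001 CPM in libraries 1 and 2, above the dividing progenitors. A Tubb2b UMI was present in 89.3% of these 131 cells, which held 980 Tubb2b UMIs per Stmn2 UMI on the basis of 3 Stmn2 UMIs. Oligodendrocyte precursors held 672, 633 and 650 CPM, and mature oligodendrocytes 17.7 CPM. Astrocytes held 303, 518 and 862 CPM of Tubb2b in libraries 1, 2 and 3, and their lowest library lay below the oligodendrocyte precursors and their highest above. Mural cells held 102 CPM.

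**Figure D2:**
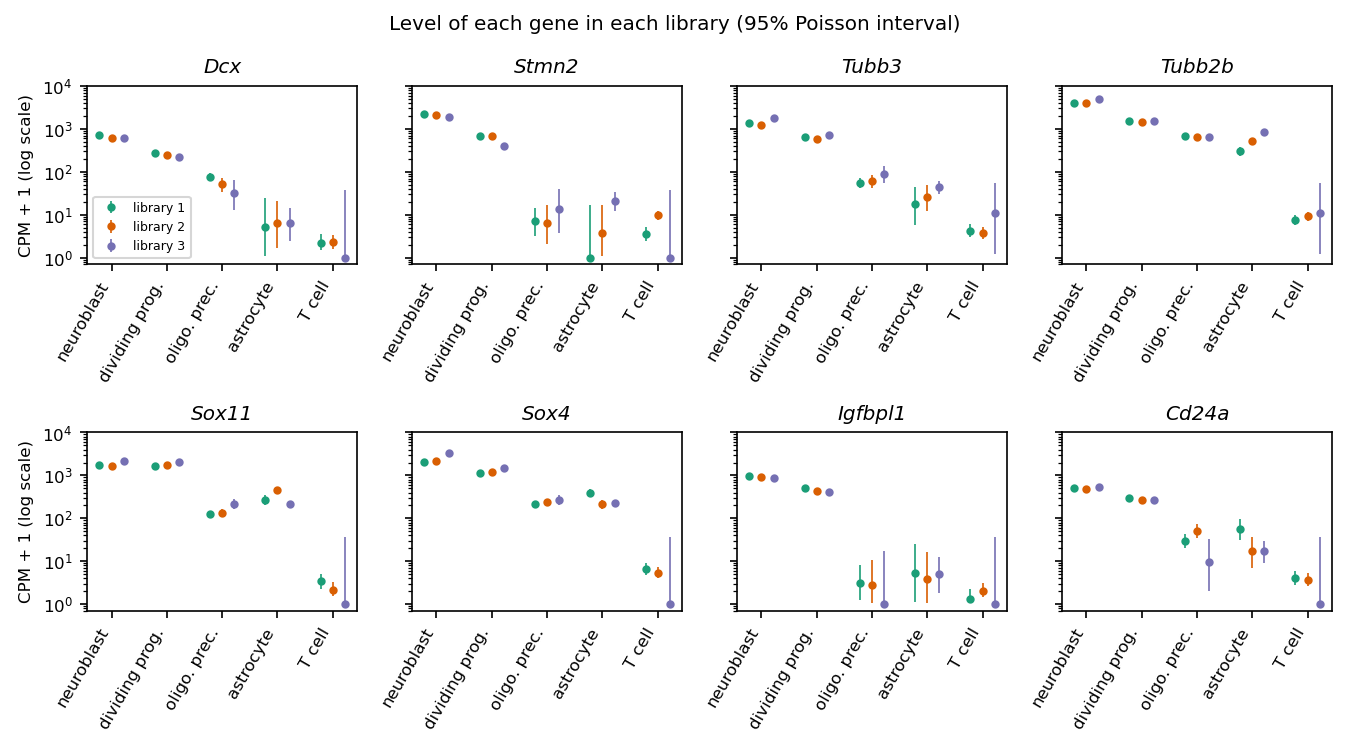
CPM + 1 of each gene on a log scale in libraries 1, 2 and 3 (points, with 95% Poisson intervals) for neuroblasts, dividing progenitors, oligodendrocyte precursors, astrocytes and T cells. For Sox11 the libraries of neuroblasts and dividing progenitors overlap (1691 to 2145 CPM and 1652 to 2096 CPM), library 3 lies apart for Stmn2 in dividing progenitors (389 CPM) and Sox4 in neuroblasts (3263 CPM), and the T cells of library 3 rest on 21 cells and have wide intervals.

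SoxC factors differed from each other between dividing progenitors and neuroblasts. Sox11 was at 1652, 1703 and 2096 CPM in the dividing progenitors of libraries 1, 2 and 3, and at 1743, 1691 and 2145 CPM in the neuroblasts. The ratio of neuroblasts to dividing progenitors was 1.001-fold over all libraries (95% interval 0.975 to 1.03) and 1.06, 0.993 and 1.02-fold in the 3 libraries. A Sox11 UMI was found in 99.0% of dividing progenitors and 96.7% of neuroblasts, and in 76.4% and 77.8% after thinning. When cells that met the neuroblast rule and that of another class were kept as neuroblasts, the log2 ratio was -0.40 and Sox11 was highest in dividing progenitors. Those 501 cells held 876 CPM of Sox11.

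Sox4 had library values that did not overlap between these classes. It was at 1122, 1198 and 1470 CPM in dividing progenitors and at 2100.4, 2188 and 3263 CPM in neuroblasts, with library 3 the highest in both. The ratio was 1.94-fold over all libraries (95% interval 1.89 to 1.999) and 1.87, 1.83 and 2.22-fold in libraries 1, 2 and 3. A Sox4 UMI was found in 97.8% of neuroblasts and 99.0% of dividing progenitors, and after thinning in 84.5% and 66.8%. The opposite-strand gene Gm26735 was at 340 CPM in neuroblasts and 121 CPM in dividing progenitors.

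Both SoxC genes were present at lower levels in oligodendrocyte precursors and committed oligodendrocyte precursors. Committed oligodendrocyte precursors held 405 CPM of Sox4, detected in 83.2% of them, and 62.8 CPM of Sox11, detected in 41.2%. Oligodendrocyte precursors held 229 CPM of Sox4, detected in 59.2%, and 138 CPM of Sox11, detected in 42.1%. From oligodendrocyte precursors to committed precursors Sox4 was thus higher and Sox11 lower. In mature oligodendrocytes Sox4 was at 10.4 CPM and Sox11 at 3.51 CPM.

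In astrocytes the SoxC genes were concentrated in few cells. Sox11 reached 288 CPM but had a UMI in 17.1% of 310 astrocytes, and 10 cells held 58.1% of its UMIs. The 20 astrocytes that met the cell cycle rule held 992 CPM of Sox11 and 788 CPM of Sox4, against 88.4 and 99.9 CPM in the other 290. Whether these 20 cells also held the neural progenitor genes was not tested, since a cell that met the astrocyte rule could not count as a dividing progenitor. The dividing astrocytes were deeper, with a median of 14771 UMIs against 2811.5. Tubb3 was at 81.5 against 20.2 CPM, Cd24a at 57.8 against 13.4 CPM and Dcx at 10.2 against 3.84 CPM in the same groups. The Dcx values rest on 7 UMIs in all 310 astrocytes. Tubb2b was lower in the dividing astrocytes, at 499 against 722 CPM, although in library 1 it was higher (546 against 206 CPM). No Stmn2 UMI was found in the 20 dividing astrocytes, and the others held 15.4 CPM. This split was chosen after the values had been seen.

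Microglia held Sox4, and among the other 7 genes Tubb2b was their highest at 26.1 CPM. Sox4 was at 39.2, 31.0 and 149.5 CPM in libraries 1, 2 and 3, and 25.6% of 9324 cells had a UMI, or 6.85% after thinning against 0.527% of T cells. Library 3 was thus apart from the other 2 libraries. Cells that met no class also held more Sox4 there, at 190.5 CPM against 45.8 and 44.5 CPM in libraries 1 and 2. Only 21 of the 2466 T cells came from library 3. The part of background in the microglial level of library 3 was not tested. For each Stmn2 UMI there were 21.5 Sox4 UMIs in microglia, 1.23 in neuroblasts and 0.827 in T cells. Border-associated macrophages held 62.3 CPM of Sox4.

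Igfbpl1, a gene related to the insulin-like growth factor binding proteins, was the most restricted of the 8. It was at 956, 907 and 875 CPM in the neuroblasts of libraries 1, 2 and 3 and at 504, 440 and 409 CPM in the dividing progenitors, a ratio of 2.06-fold (95% interval 1.96 to 2.16). No other class of at least 50 cells exceeded 3.74 CPM, the level in astrocytes. Oligodendrocyte precursors held 3 Igfbpl1 UMIs in 321 cells, which gives a ratio of 539-fold for neuroblasts with a wide counting interval of 184 to 2613. Neurons held 4 Igfbpl1 UMIs in 128 cells, 2.53 CPM. An Igfbpl1 UMI was found in 92.3% of neuroblasts, 88.2% of dividing progenitors and 0.365% of T cells.

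Cd24a encodes a glycosylated surface protein that is used to sort neuroblasts. Its level was 519, 490 and 539 CPM in the neuroblasts of libraries 1, 2 and 3 and 295, 266 and 261 CPM in the dividing progenitors, a ratio of 1.90-fold (95% interval 1.79 to 2.03). In neutrophils it was at 815, 830 and 381 CPM, with 214, 61 and 31 cells, so the neutrophils of libraries 1 and 2 lay above and those of library 3 below the neuroblasts. A Cd24a UMI was found in 79.7% of neutrophils and 81.4% of neuroblasts, and after thinning in 50.3% and 38.6%. None of the other 7 genes exceeded 16.4 CPM in neutrophils. Smaller classes also held Cd24a, with 610 CPM over 9 ependymal cells (95% interval 408 to 875) and 161 CPM over 36 B cells (95% interval 102 to 242).

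**Figure D3:**
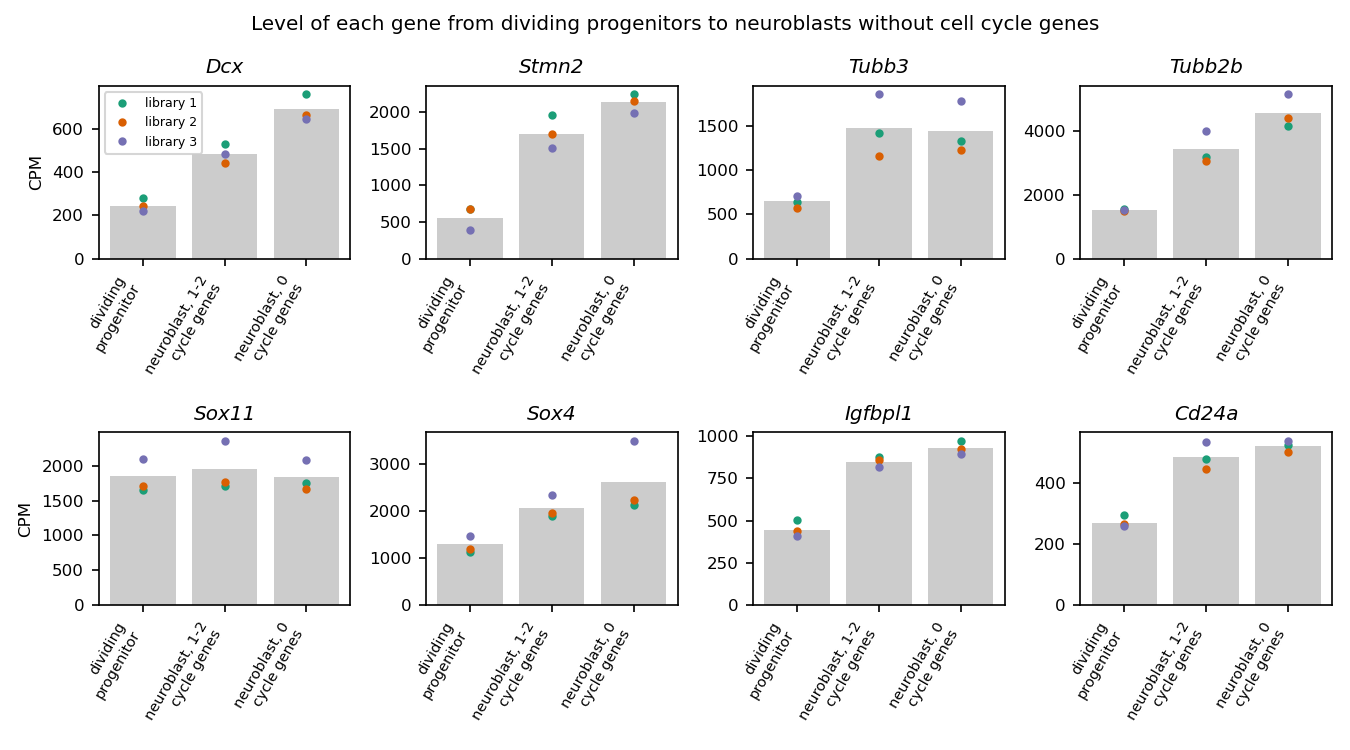
CPM of each gene (bars, all libraries; points, each library) in dividing progenitors and in neuroblasts with 1 to 2 or 0 cell cycle genes. Stmn2 and Tubb2b are higher in each successive group, Tubb3 levels off in neuroblasts, and Sox11 stays between 1834 and 1954 CPM.

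Neuroblasts were next divided by the cell cycle genes they still held, a division chosen after the first values had been seen. Of the 8 cell cycle genes, 245 neuroblasts had 1 to 2 and 1419 had none, at medians of 5898 and 4169 UMIs. The groups were cut by detection, which depends on depth, and the part of depth in the differences was not tested.

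Stmn2 was at 556 CPM in dividing progenitors, 1704 CPM in neuroblasts with 1 to 2 cell cycle genes and 2132 CPM in those with none. Tubb2b took the same course, at 1513, 3417 and 4563 CPM, and Dcx lay at 244, 482 and 691 CPM. Tubb3 was at 647, 1477 and 1448 CPM, and in libraries 1 and 3 it was lower in neuroblasts without cell cycle genes than in those with 1 to 2.

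Sox4 was at 1294, 2080 and 2625 CPM in the same order. Its larger step in CPM lay between dividing progenitors and neuroblasts over all libraries and in libraries 1 and 2, but between the neuroblast groups in library 3. Sox11 was at 1856, 1954 and 1834 CPM. Igfbpl1 was at 443, 848 and 928 CPM and Cd24a at 271, 487 and 523 CPM. Dcx, Stmn2, Tubb2b, Sox4, Igfbpl1 and Cd24a were each higher in every successive group in all 3 libraries. Within the dividing cells this order did not hold for Stmn2 and Tubb2b. Cells of the lineage with 6 to 8 cell cycle genes (324 cells) held 585 CPM of Stmn2 and 1545 CPM of Tubb2b, and the 93 with 3 to 5 held less, 422 and 1360.1 CPM. For Stmn2 this was so in libraries 1 (722 and 426 CPM), 2 (707 and 571 CPM) and 3 (408 and 298 CPM). For Tubb2b, library 2 went the other way (1448 and 1668 CPM). Sox4 (1239 and 1558 CPM) and Igfbpl1 (427 and 522 CPM) were higher in the cells with 3 to 5, in all 3 libraries. Dcx (236 and 282 CPM) and Cd24a (262 and 315 CPM) were also higher there over all libraries, but not in library 1.

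Dividing cells of other classes were compared in the same way. The 137 microglia that met the cell cycle rule held 54.7 CPM of the 8 genes together against 87.3 CPM in other microglia. Their median depths were 16442 and 7533 UMIs. Of the 137, 98 came from library 2 and 6 from library 3, against 4660 and 1795 of the others. Within library 2, Tubb2b was higher in the dividing microglia (36.5 against 19.7 CPM) and Sox4 lower (15.2 against 31.6 CPM). The pooled difference therefore need not hold within a library. The 164 such T cells held 13.3 CPM against 30.7 CPM in other T cells. The 21 such oligodendrocyte precursors (14, 5 and 2 in libraries 1, 2 and 3) held 1062 CPM against 1199 CPM in the other 300. Sox11 was higher in these 21 cells (239 against 128 CPM) and Sox4 lower (101 against 241 CPM). The 20 such astrocytes held 2439 CPM against 965 CPM in the other 290.

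**Figure D4:**
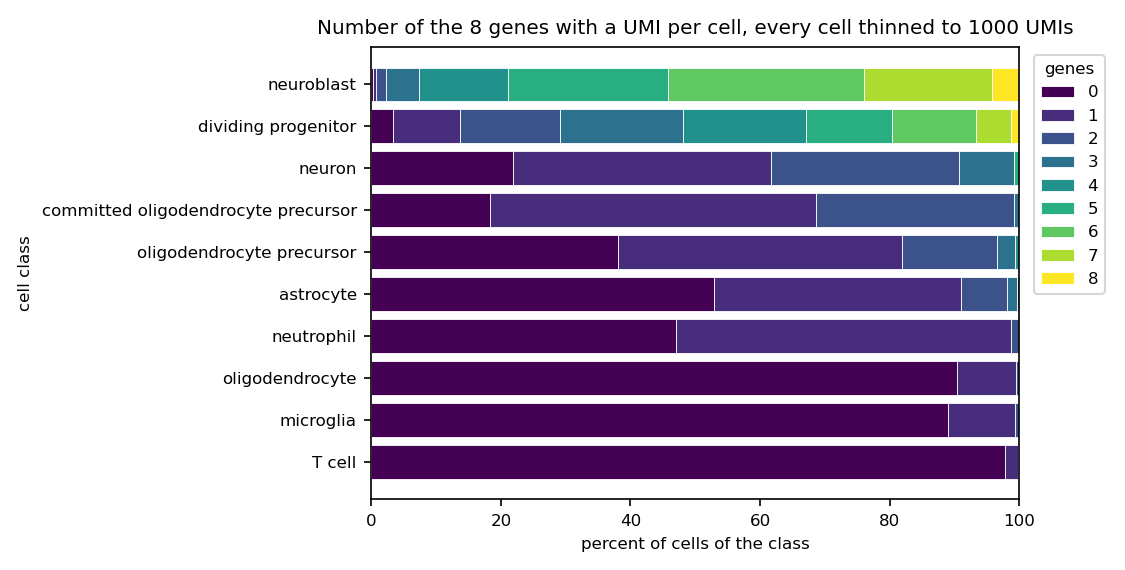
Percent of the cells of each class (bars) with 0 to 8 of the 8 genes detected after each cell was thinned to 1000 UMIs. Neuroblasts have a median of 6 genes and dividing progenitors of 4, while over 89% of microglia, oligodendrocytes and T cells have none.

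Detection of the 8 genes in the same cell was compared at 1 depth. Thinned to 1000 UMIs, neuroblasts had a median of 6 of the 8 genes and 78.9% had at least 5. Dividing progenitors had a median of 4 genes and 32.9% had at least 5. Oligodendrocyte precursors, committed precursors and neurons had a median of 1 gene, and none of the 321 oligodendrocyte precursors had 5, where a floor of 3 cells allows a share of up to 0.935%. As counted, 16 of these 321 cells had at least 5. As counted, all 8 genes were found in 1090 neuroblasts, 65.5% of the class, and in 215 dividing progenitors, 51.7%.

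In all, 2561 cells held at least 5 of the 8 genes as counted. Of these, 1628 (63.6%) were neuroblasts, 379 (14.8%) dividing progenitors and 438 (17.1%) cells that met the rules of several classes. Only 45 met no class rule, 30 were neurons and 16 oligodendrocyte precursors. T cells supplied 1 of them and neutrophils none.

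The genes also followed the strength of the neuroblast rule, which does not use them. Among cells in no other class, the 3415 with none of the 4 rule genes held 130 CPM of the 8 genes together and the 174 with 1 rule gene held 2651 CPM. With 2, 3 and 4 rule genes the sum was 10088, 13626 and 14933 CPM, in 167, 468 and 1030 cells. The median UMI count also differed, at 1758.5 for 1 rule gene and 2517, 3620 and 4907 for 2, 3 and 4. A cell with 1 rule gene held a median of 1 of the 8 genes and a cell with 2 held 7.

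The 8 genes were set against all genes and against 41 related genes of the same families or processes. Of the 3722 genes with at least 50 CPM in neuroblasts or dividing progenitors, 9.19% were at least 2-fold higher in neuroblasts and 10.3% at least 2-fold lower. Of the 8 genes 5 were at least 2-fold higher (Dcx, Stmn2, Tubb3, Tubb2b and Igfbpl1) and none was 2-fold lower. Their median log2 ratio was 1.11, against 0.01 over all genes tested and 0.67 over 29 related genes that passed the same limit. Against oligodendrocyte precursors, all 8 were at least 2-fold higher, where 11.5% of 4463 genes were, and none was 2-fold lower, where 24.7% were. Their median log2 ratio in that comparison was 3.86, against -0.14 over all genes. The 8 genes were picked as neuroblast genes with earlier results of these data known, so these counts describe the choice.

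**Figure D5:**
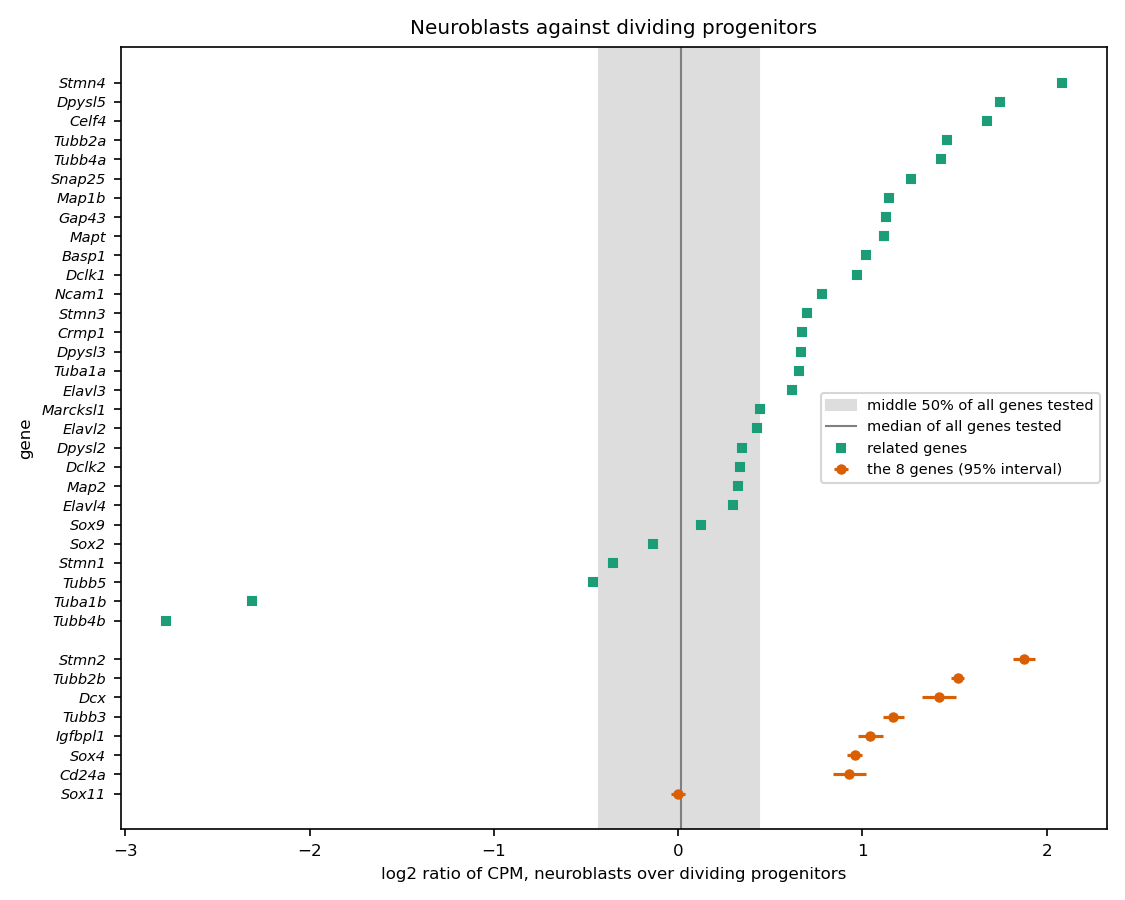
Log2 ratio of CPM in neuroblasts over dividing progenitors for the 8 genes (circles, with 95% counting intervals) and the 29 related genes with at least 50 CPM in either class (squares), with the median and middle 50% of all 3722 genes tested. Stmn2 lies highest of the 8 and Sox11 at 0, while Tuba1b and Tubb4b lie at the far left.

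The related genes differed within their families. Of the 7 tubulins, 6 had at least 50 CPM in neuroblasts or dividing progenitors. Among these, Tuba1b and Tubb4b were at least 2-fold lower in neuroblasts, at 274 against 1362 CPM and 91.2 against 626 CPM in dividing progenitors. Tubb5, another beta-tubulin, was at 3024 CPM in neuroblasts and 4157 CPM in dividing progenitors, the reverse of Tubb3 and Tubb2b. Tuba1a, an alpha-tubulin abundant in young neurons, was at 6536 and 4150.5 CPM, but it was highest in committed oligodendrocyte precursors, at 8350 CPM. Tubb2a was 2.76-fold higher in neuroblasts but highest in neurons, at 846 CPM. Tubb4a was 2.69-fold higher in neuroblasts but highest in oligodendrocytes, at 1409 CPM.

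The stathmins also differed among themselves. Stmn1 was at 5462 CPM in neuroblasts and 6967 CPM in dividing progenitors, its highest class. Stmn4 was 4.24-fold higher in neuroblasts than in dividing progenitors, but oligodendrocytes held the most, at 1751 CPM against 821 CPM in neuroblasts. Stmn3 was highest in neurons, at 1239 CPM. No related stathmin therefore had the pattern of Stmn2.

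Of the doublecortin-like kinases, Dclk1 was highest in astrocytes (695 CPM) and Dclk2 in neuroblasts (159 CPM, against 126 CPM in dividing progenitors). Among microtubule-associated and growth cone genes, Map1b (2.21-fold), Mapt (2.17-fold), Gap43 (2.19-fold) and Basp1 (2.03-fold) were at least 2-fold higher in neuroblasts than in dividing progenitors. Mapt was nonetheless highest in oligodendrocytes and Gap43 in neurons. Of the collapsin response mediators, which transmit guidance signals to the cytoskeleton, Crmp1, Dpysl3 and Dpysl5 were highest in neuroblasts. Dpysl2 was highest in oligodendrocytes and Dpysl4 in committed oligodendrocyte precursors. Elavl2, Elavl3 and Elavl4, neuronal RNA-binding proteins, were highest in neuroblasts too. Elavl3 was nearly as high in oligodendrocytes, at 469 against 484 CPM. Celf4, the other gene of this group, was highest in neurons, at 687 CPM. Snap25, a synaptic vesicle fusion protein and a marker used to sort the neuron class, was at 92.7 CPM in neuroblasts and 483 CPM in neurons. Syt1 was also higher in neurons (243 against 37.2 CPM), as was Nefl (13.3 against 3.35 CPM). Rbfox3 was low in neurons, neuroblasts and dividing progenitors alike (8.24, 5.92 and 7.29 CPM), and no interval was computed for it. Nefm, which like Nefl is also a marker of that class, was lower in neurons (6.97 against 13.8 CPM).

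Sox12, the remaining SoxC gene, was also highest in neuroblasts, at 47.5 CPM, with 41.1 CPM in dividing progenitors and 27.1 CPM in oligodendrocyte precursors, but it did not reach the 50 CPM limit. The other 6 Sox genes of the list were highest in astrocytes or in the oligodendrocyte lineage. Sox2 and Sox9, genes of neural stem cells and astrocytes, were highest in astrocytes at 457 and 473 CPM, with 353 and 132 CPM in neuroblasts. Sox10, a factor of the oligodendrocyte lineage, was highest in oligodendrocyte precursors at 365 CPM and at 6.70 CPM in neuroblasts, and Sox5, Sox6 and Sox8 were likewise highest in oligodendrocyte precursors or committed precursors.

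The genes whose levels across the 15 classes were most like those of each of the 8 were found by Pearson's r of log2(CPM + 10) among 7876 genes. The classes share libraries and differ in depth, so r is given as a description. Rnf165 was most like Dcx (r = 0.98), Gad2 most like Stmn2 (0.96), Kif5c most like Tubb3 (0.97) and Ptprs most like Tubb2b (0.97). Mfap2 was most like Sox11 (0.99), with 125 CPM in neuroblasts and 130 CPM in dividing progenitors, and Dclk2 was also close (0.98). Gm26735 was most like Sox4 (0.96). Igfbpl1 was most like Sp9 (0.997) and Dlx6os1 (0.996), which belong to the neuroblast rule, and then Sp8 (0.99). Cd24a had no close match, with Cep83 at 0.85. Among the 8 genes themselves, r ran from 0.43 (Tubb2b with Cd24a) to 0.94 (Tubb2b with Sox4), and Sox11 with Sox4 stood at 0.92.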

How the data were processed

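The authors ran Cell Ranger 3.1.0 on the 3 Chromium 3′ libraries to obtain 1 matrix of counts of UMIs; it mapped reads with STAR (genome mm10 per the submitters' processing notes) and down-sampled reads across libraries. The deposited values are raw counts per gene and barcode, 69270514 to 105957232 UMIs per library. Identifiers matched GENCODE GRCm38 for 99.6% of 31053 genes.

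The 8 genes, the marker lists and the 41 related genes were chosen with earlier results of these data known. The number of markers that each class needs, other than neuroblasts, was set after the counts were read. Oligodendrocytes and microglia needed 4 of 6 markers, neuroblasts 2 of 4 and other classes 3; neurons yielded to every other class. Counts were summed per class and scaled to CPM; intervals are exact Poisson, exact conditional binomial for ratios, and exact Clopper-Pearson for shares (SciPy 1.17.1). Named genes were the 8, the markers, the related genes and, for each of the 8, the 3 genes of highest Pearson's r with at least 50 CPM in 1 class.

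Doublets were called per library against simulated doublets (2 for each cell), on 30 principal components of 2000 variable genes at a presumed rate of 10%. The 3.53% of barcodes so called stayed in, except under 1 alternative. Only 27.5% to 41.8% of simulated doublets lay above the threshold. The matrix held 0 sample columns outside the series. The steps were tested on simulated data. Software was scikit-learn 1.9.0, scikit-image 0.26.0, Matplotlib 3.10.9, pandas 2.3.3 and NumPy 2.4.6 in Python 3.11.15. Alternatives were each library left out, the mean plus 2 SD filter of the methods, a 10% mitochondrial limit, other neuroblast rules, cells of several classes kept, and thinning to 1000 UMIs. A split of the dividing progenitors by 1 marker is not reported here.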

Additional observations from a re-analysis of the deposited data

How the results depend on the processing

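No paired analysis was possible because the libraries are not paired with conditions and no result comes from a test. The summed CPM of the 8 genes in neuroblasts over dividing progenitors was 2.09-fold and ranged from 2.02 to 2.13-fold with 1 library left out. It was 1.81-fold without cells above the mean plus 2 SD of UMIs or genes. That filter left 309 of 416 dividing progenitors and 1662 of 1665 neuroblasts. The ratio was 2.14-fold with a neuroblast rule of 3 genes and 1.85-fold with a rule of 1 gene. It was 1.48-fold with cells of several classes kept and 1.90-fold after thinning. The sum over oligodendrocyte precursors was 12.04-fold, from 11.4 to 12.4-fold with 1 library left out, 10.5-fold with a rule of 1 gene, 9.61-fold with cells of several classes kept and 12.996-fold after thinning. The median of 6 genes per thinned neuroblast became 5 with a rule of 1 gene and with cells of several classes kept. The 7 genes highest in neuroblasts became 6, with Sox11 then highest in dividing progenitors, under these same 2 settings and without library 1. The log2 ratio of Sox11 lay between -0.40 and 0.09 over all settings, while that of each other gene stayed above 0, the lowest being 0.45 for Cd24a with cells of several classes kept. The cause of these shifts was not tested. Of 698 further values for single genes, 474 moved by less than their counting interval and 224 by more. Depth limits the shares of cells, which were therefore also given after thinning.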
